A study of Homo sapiens with 8 samples.

Results

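Solitary RBFOX2 peaks are stretches of RNA that RBFOX2 bound with no other called peak nearby. They were taken from the deposited RBFOX2 peak list by position alone. A peak was kept if no TIA1 peak overlapped it or lay within 1000 bases on its strand, and if no other RBFOX2 peak lay within 1000 bases on that strand. The rule kept 1096 of 4227 RBFOX2 peaks, or 25.9% of the list (95% Clopper-Pearson interval 24.6 to 27.3%), and 1096 of the 7442 peaks of both proteins. The other RBFOX2 peaks were 916 that overlapped a TIA1 peak, 619 that lay beside one within 1000 bases, and 1596 that were far from TIA1 but clustered with other RBFOX2 peaks.

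RBFOX2 is a splicing regulator of the RBFOX family, whose single RNA recognition motif reads the element GCAUG, often preceded by U. In general, RBFOX proteins promote inclusion of an exon when they bind the intron downstream of it and favour skipping when they bind upstream. They also bind far from exons, deep in introns, and in 3′ untranslated regions. TIA1, whose peaks served here as the second landmark, prefers U-rich RNA, acts on splice site choice and gathers in stress granules.

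The peaks came from eCLIP, in which ultraviolet light fixes proteins to the RNA they touch before the complex is immunoprecipitated and its RNA sequenced. HEK293T cells, a line of embryonic kidney origin, received 600 mJ. RBFOX2 and TIA1 each had 2 clip libraries, precipitated with an anti-HA tag antibody, and 2 input libraries, made without an antibody. The labels name no other treatment or genotype, do not say how the HA tag was carried, mention TIA1-bound beads for every library, and do not settle whether the replicates were biological or technical.

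Each list was made from both replicates of a protein together. It has no header and gives a position and values per peak. These are read here, from their ranges, as a −log10 p and a log2 fold of clip over input. The list gives no value per library, so no spread between replicates can be stated. Both values are the authors' own. Read depth is unknown, and a region without a peak may be bound below the authors' limits. Fold and −log10 p come from the contrast that made the peaks on which the rule rests. They are therefore described without a test. Intervals of medians and shares cover counting error only and treat peaks as independent. Positions are 1-based in hg19. The genes, exons and introns at these positions and the RNA sequence under them were not analysed here.

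Among the rows of the RBFOX2 list, solitary peaks were wide and modest in their deposited values. Their median log2 fold was 3.38 (95% interval 3.36 to 3.42), a 10.4-fold enrichment over input, with quartiles of 3.16 and 3.74. Across all 4227 RBFOX2 peaks the median log2 fold was 3.48 (3.47 to 3.50). The median −log10 p was 4.77 (4.63 to 4.95) among solitary peaks and 6.77 (6.63 to 6.97) in the whole list. Their median width was 95 bases (91 to 98), against 70 bases (69 to 72) in the whole list. In all they covered 107.2 kb, which is 34.5% of the bases under RBFOX2 peaks for 25.9% of the peaks. These widths are of rows as deposited. Solitary sites joined from 2 or more rows within 50 bases had a median width of 158.5 bases.

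The clustered RBFOX2 peaks far from TIA1 stood furthest from the solitary peaks in fold, and the peaks that overlapped TIA1 stood furthest in −log10 p. Clustered peaks had a median log2 fold of 3.63 (3.60 to 3.66) and a median −log10 p of 6.47. Peaks beside TIA1 had a median log2 fold of 3.42 and a median −log10 p of 8.97. For peaks overlapping TIA1 these were 3.42 and 10.5. Solitary and TIA1-overlapping peaks were thus close in fold (3.38 against 3.42) while their −log10 p differed widely (4.77 against 10.5). Median widths in the same order were 62, 48 and 65 bases, each below the 95 bases of solitary peaks.

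**Figure D1:**
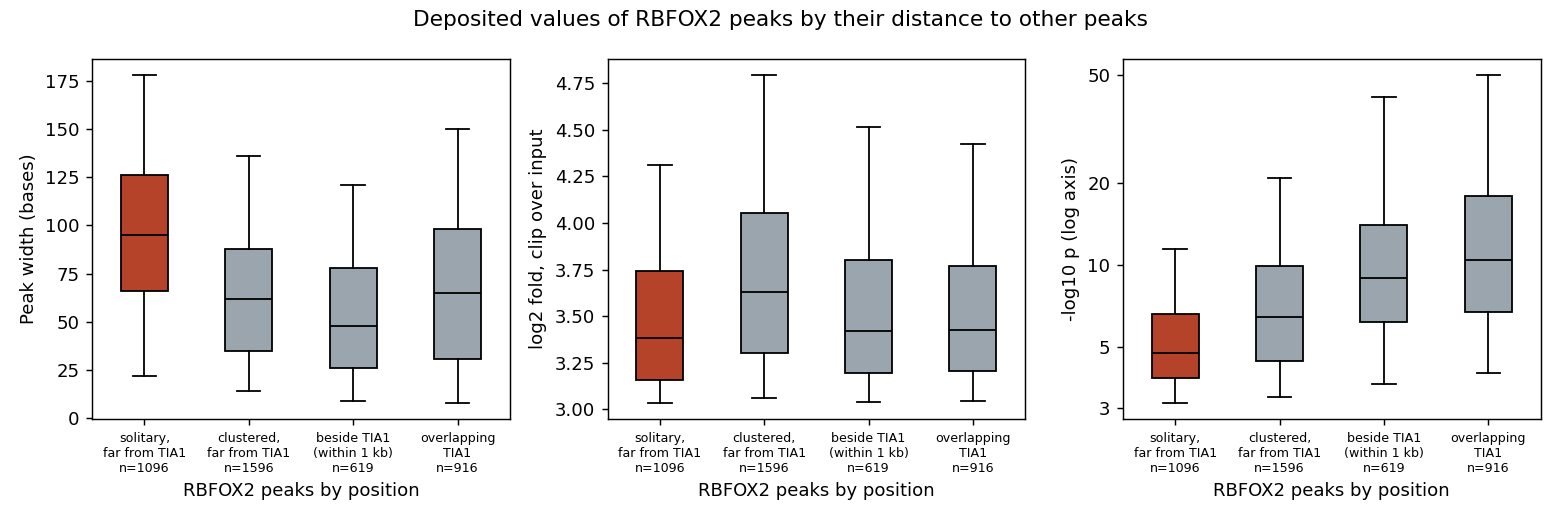
Width in bases, log2 fold of clip over input and −log10 p (log axis) of RBFOX2 peaks in 4 position classes. Boxes span the quartiles with the median as a line, and whiskers the 5th to 95th percentile. Solitary peaks have the highest median width (95 bases) and the lowest median −log10 p (4.77).

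Of the solitary peaks, 138 (12.6%) had a log2 fold of 4 or more, which is 16-fold. In the whole RBFOX2 list 19.3% of peaks reached it. A −log10 p of at least 10 was reached by 84 solitary peaks, or 7.66%, where the share of the whole list was 29.1%. Since the rule rests on this same contrast, nothing is read from these shares. At the low end, 310 solitary peaks (28.3%) had a −log10 p under 4 and 163 (14.9%) a log2 fold under 3.1. In the whole RBFOX2 list these shares were 16.0% and 11.9%. Both held for 46 of them (4.20%), against 57 of the 3131 other RBFOX2 peaks (1.82%). Nothing is read from these shares either.

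Solitary peaks, 25.9% of the RBFOX2 list, were few among its rows of highest −log10 p and many among its widest. None was among the 100 RBFOX2 peaks of highest −log10 p, and 16 were among the first 500. The first solitary peak by −log10 p held rank 139 of the list. By log2 fold the first held rank 23, with 8 in the first 100 and 75 in the first 500. Ranked by width, the first was the widest of all RBFOX2 peaks, and 54 of the 100 widest were solitary. No solitary peak reached the upper limit of 400 for −log10 p, which 29 other RBFOX2 peaks did. A site written as several rows takes several ranks, and the rule rests on the same contrast. Nothing is therefore read from these counts.

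**Figure D2:**
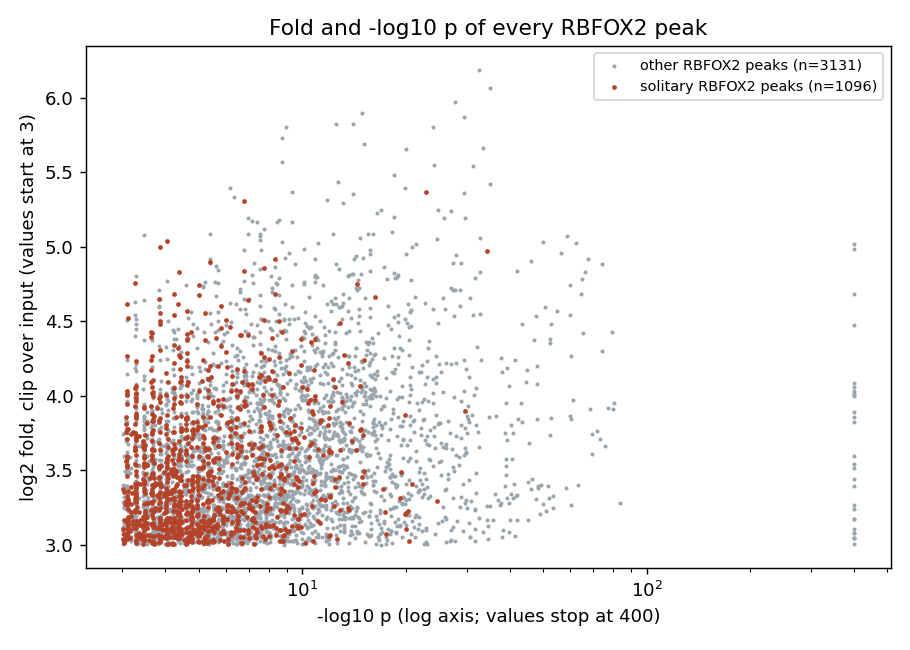
Log2 fold of clip over input against −log10 p (log axis) for every RBFOX2 peak, with solitary peaks in red and all others in grey. Solitary peaks crowd the lower left, stop at a −log10 p of 34.3, and reach a log2 fold of 5.37. The upright stripes at low −log10 p are peaks that share 1 −log10 p at differing folds.

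The solitary peak of highest −log10 p was chr6:34256221-34256343 (minus strand), with a −log10 p of 34.3 and a log2 fold of 4.97. It was 103769 bases from the nearest RBFOX2 peak on its strand and 1400236 bases from the nearest TIA1 peak. The next, chr2:131850906-131851015 (minus), had a −log10 p of 29.6 and a log2 fold of 3.90. The third, chr17:79826084-79826213 (minus), had 24.5 and 3.29. Its nearest peak was a TIA1 peak 7673 bases away. These peaks show that a high −log10 p occurred with folds near the lower limit of the list as well as with high ones.

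The remaining 7 of the 10 solitary peaks of highest −log10 p had values from 19.9 to 22.9. One of them, chr1:36388128-36388276 (plus), also had the highest log2 fold of all solitary peaks, 5.37 or 41.2-fold, with a −log10 p of 22.9. It barely met the rule: another RBFOX2 peak lay 1158 bases away. The other 6 had log2 folds from 3.03 to 3.41. On plus strands these were chr6:64282425-64282506, chr1:228675096-228675264, chr2:74425788-74425866 and chr2:8822189-8822348. On minus strands they were chr2:10588252-10588382 and chr9:21974702-21974809. The peak chr2:8822189-8822348 was the most remote of these 6, with the nearest peak of either list 1372345 bases away on its strand.

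By fold, the second solitary peak was chr17:18231010-18231114 (plus), at a log2 fold of 5.31 (39.6-fold) and a −log10 p of 6.77. The minus-strand peak chr9:127909819-127909887 had a log2 fold of 5.04 and a −log10 p of 4.04. For chr3:178738924-178739068 (minus) these values were 5.00 and 3.86. The chromosome 1 peak at 36388128 and the chromosome 6 peak at 34256221 were in the first 10 by both fold and −log10 p. Nothing is read from this overlap. The last 5 of the 10 highest folds ran from 4.83 to 4.92. Those on plus strands were chr1:51736860-51736974 and chr3:150177447-150177492. Those on minus strands were chr1:23686063-23686208, chrX:108885323-108885425 and chr9:36339177-36339358.

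High values of both kinds together were uncommon in the RBFOX2 list, at 370 peaks (8.75%). Of the 1096 solitary peaks, 15 (1.37%) had a log2 fold of at least 4 together with a −log10 p of at least 10, against 355 of the 3131 other RBFOX2 peaks (11.3%). The rule rests on this same contrast, so nothing is read from these shares. Beyond the peaks on chromosomes 1 and 6 given above, the highest folds of these 15 were on plus strands. For chr7:45757200-45757371 the log2 fold was 4.75 and the −log10 p 14.4. For chr3:33184068-33184187 they were 4.66 and 16.3. These 15 peaks were singled out after their values were seen.

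Within the solitary peaks, fold and −log10 p were only loosely related. Spearman's rho across the 1096 peaks was 0.12 for log2 fold with −log10 p, 0.21 for width with −log10 p and 0.12 for width with log2 fold. The points share libraries and the authors' limits, and peaks are not replicates. In bands of −log10 p, the median log2 fold was 3.36 among 310 peaks between 3 and 4, 3.34 among 288 between 4 and 5, 3.43 among 414 between 5 and 10, and 3.62 among 84 at 10 and over. Median widths in these bands were 87, 86.5, 104 and 114.5 bases.

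Solitary peaks included few of the shortest rows of the list and many of the widest. Peaks under 20 bases made up 3.83% of solitary peaks (42) and 11.9% of the other RBFOX2 peaks (372). Peaks of at least 150 bases made up 12.4% (136) and 3.42% (107). Read the other way, the solitary share rose with each band of width. It was 10.1% of the 414 RBFOX2 peaks under 20 bases, 11.9% of 1030 from 20 to under 50 bases and 25.2% of 1694 from 50 to under 100 bases. It was 43.5% (95% Clopper-Pearson interval 40.1 to 46.9%) of 846 from 100 to under 150 bases and 56.0% (49.5 to 62.3%) of 243 at 150 bases and over. A broad site that the authors' list divides into neighbouring rows cannot give a solitary peak, so width and the rule are not independent.

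The widest solitary peak, chr4:103265644-103265990 (minus), spanned 347 bases with a log2 fold of 3.68 and a −log10 p of 9.69. The minus-strand peak chr19:40030402-40030737 spanned 336 bases with a log2 fold of 3.05. The next, all on minus strands, were chr12:39836753-39837043 with 291 bases, chr9:138852910-138853198 with 289 and chr1:85666401-85666687 with 287. All 5 had log2 folds of at most 3.68, below the level of 4 used above. At the other end, the shortest solitary peak covered 2 bases, chr11:836063-836064 (plus), with a log2 fold of 3.05 and a −log10 p of 4.13.

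The distances beyond the limit ranged over 4 orders of magnitude. The nearest peak of either list on the strand was a median of 121.4 kb away (quartiles 21.8 and 663.5 kb). The nearest other RBFOX2 peak was a median of 273.4 kb away and the nearest TIA1 peak 432.5 kb. An RBFOX2 peak was the nearer neighbour for 669 solitary peaks (61.0%), a TIA1 peak for 425, and 2 were tied. The TIA1 list is the shorter one (3215 peaks), and the part of list length in this count was not tested. No TIA1 peak lay within 1 Mb on the strand for 361 solitary peaks (32.9%). This share was not taken for the other RBFOX2 peaks. Clustered RBFOX2 peaks far from TIA1 had a median of 172.5 kb to the nearest TIA1 peak. Of the nearest other RBFOX2 peaks, 557 were themselves solitary, 256 clustered far from TIA1, 98 beside TIA1 and 185 overlapping TIA1. In the whole RBFOX2 list these classes made up 25.9%, 37.8%, 14.6% and 21.7%. The classes rest on the same distances, so nothing is read from these counts.

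Median fold was alike at all degrees of isolation, whereas median width was greater in more isolated peaks. The median log2 fold was 3.38 (95% interval 3.35 to 3.48) for 197 peaks with a neighbour at 1 to 10 kb and 3.38 (3.31 to 3.42) for 314 with one at 10 to 100 kb. It was 3.40 (3.34 to 3.46) for 388 with one at 100 kb to 1 Mb and 3.40 (3.31 to 3.49) for 197 with none within 1 Mb. These medians lie within one another's intervals. Median width in the same order was 76 (67 to 85), 86 (79 to 91), 103 (99 to 108) and 110 (104 to 116) bases. Peaks under 20 bases were 12.2% of those with a neighbour within 10 kb (24 peaks) and 0.51% of those with none within 1 Mb (1 peak).

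**Figure D3:**
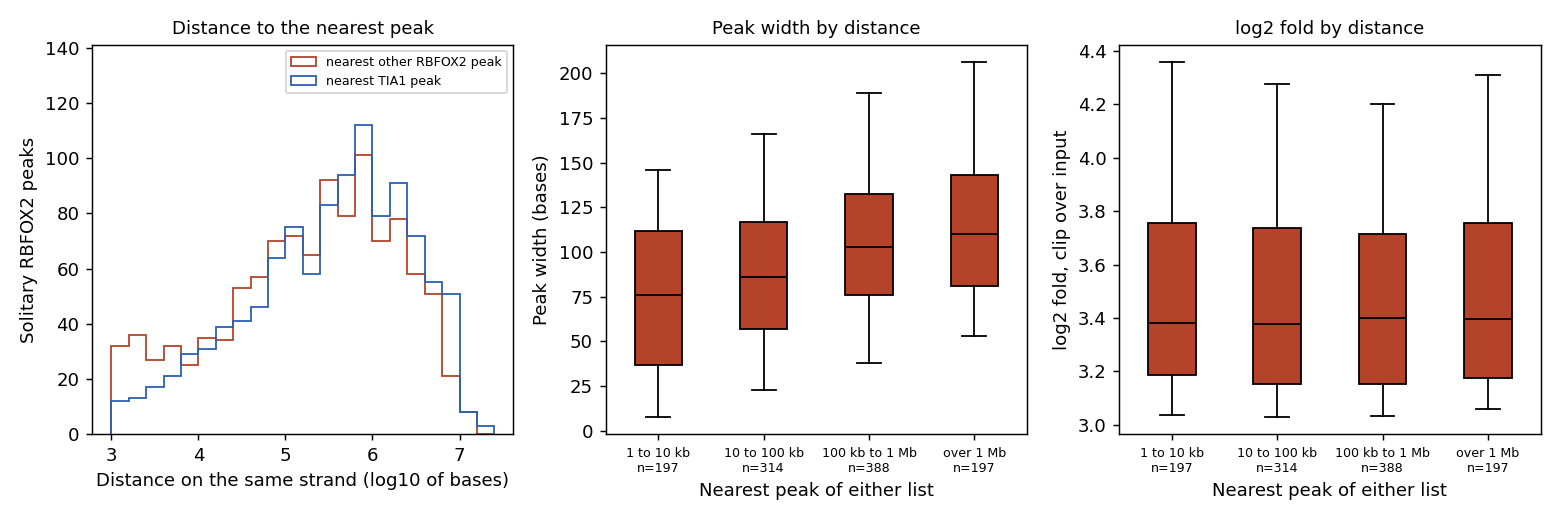
Left, solitary RBFOX2 peaks counted by the log10 of their distance in bases to the nearest other RBFOX2 peak and the nearest TIA1 peak on the strand. Middle and right, their width in bases and log2 fold of clip over input by distance to the nearest peak of either list (boxes, quartiles and median; whiskers, 5th to 95th percentile). Median width runs from 76 to 110 bases while the median log2 fold stays between 3.38 and 3.40.

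The most isolated solitary peak was chr6:90539644-90539693 (plus), with 14080558 bases to its nearest neighbour and a log2 fold of 3.05. Next was chr4:17802413-17802482 (minus), at 13510568 bases and 3.04. The third, chr9:4741110-4741219 (minus), was at 10769019 bases and had a log2 fold of 4.29 with a −log10 p of 5.98. These 3 were picked out after their distances were seen, and they span low and high folds.

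At the limit of the rule, 3 peaks on each side are described, which are too few for a comparison of values. The 3 peaks that met it by least had their nearest neighbour at 1002, 1014 and 1015 bases. They were chr20:49201175-49201221 with a log2 fold of 3.78, chr14:90873994-90874055 with 3.22 and chr22:44892431-44892528 with 3.96. The 3 that missed it by least included a minus-strand pair 967 bases apart, chr20:48250784-48250892 (log2 fold 3.53) and chr20:48251860-48251963 (3.52). The other, chr2:20646932-20647016 (3.34), was 956 bases from its neighbour.

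Of the solitary peaks, 899 had no peak of either list within 10 kb on the strand. Grouped among themselves within 10 kb, 1023 solitary peaks had no other solitary peak in reach, 64 formed 32 pairs and 9 formed 3 groups of 3. The rule bars neighbours within 1000 bases, and other RBFOX2 peaks were not grouped in this way. Nothing is read from these counts. The closest group of 3, on a plus strand, spanned 2.54 kb with chr2:131904756-131904878, chr2:131905962-131906096 and chr2:131907203-131907291. Their log2 folds were 3.82, 3.36 and 4.61, and their −log10 p 3.54, 4.39 and 3.09. They were spaced 1083 and 1106 bases apart, just over the limit. The second group, chr4:177241294-177253336 (plus), spanned 12.04 kb with log2 folds of 3.22, 3.94 and 3.20.

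The third group, chrX:70779522-70787846 (plus), spanned 8.32 kb. Its peaks were 4, 20 and 3 bases wide, with log2 folds of 3.12, 3.11 and 3.06. It joined very short peaks, whereas the peaks of the chromosome 2 group were 123, 135 and 89 bases wide. No other RBFOX2 peak and no TIA1 peak lay within the span of any of the 3 groups (0 in each).

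Solitary peaks were spread over 728 of the 1098 windows of 1 Mb that held any RBFOX2 peak, with a single one in 490 windows and at most 6 in a window. In 274 windows the solitary peak was the only RBFOX2 peak, and 175 of these windows held no TIA1 peak on either strand. The 3 windows with 6 were chromosome 2 from 131 to 132 Mb, chromosome 22 from 21 to 22 Mb and chromosome 3 from 47 to 48 Mb. The chromosome 2 window held 11 RBFOX2 peaks and no TIA1 peak (0), and its 6 solitary peaks ran from a −log10 p of 3.09 to 29.6. The chromosome 22 window held 16 RBFOX2 and 7 TIA1 peaks, and the chromosome 3 window 11 and 12. On chromosome 19, the window from 42 to 43 Mb held 5 RBFOX2 peaks, and all 5 were solitary.

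By chromosome, the solitary share of RBFOX2 peaks ran from 16.4% to 37.7%. It was highest on chromosome 9, with 60 of 159 peaks (37.7%, 95% Clopper-Pearson interval 30.2 to 45.8%), and next on chromosome 10, with 58 of 168 (34.5%, 27.4 to 42.2%). It was lowest on chromosome 22, with 20 of 122 (16.4%, 10.3 to 24.2%). These 3 of 23 chromosomes had intervals that did not include the 25.9% of the whole list. The intervals are not adjusted for 23 comparisons and treat clustered peaks as independent, so no difference between chromosomes is claimed. Median log2 folds of solitary peaks were 3.54 on both chromosome 9 and chromosome 10 and 3.21 on chromosome 22. Chromosome 14, with a share of 24.8%, had 3.53. No relation of fold to share is read from these medians. On the plus strand lay 539 solitary peaks, 49.2% (46.2 to 52.2%), against 50.7% of all RBFOX2 peaks.

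**Figure D4:**
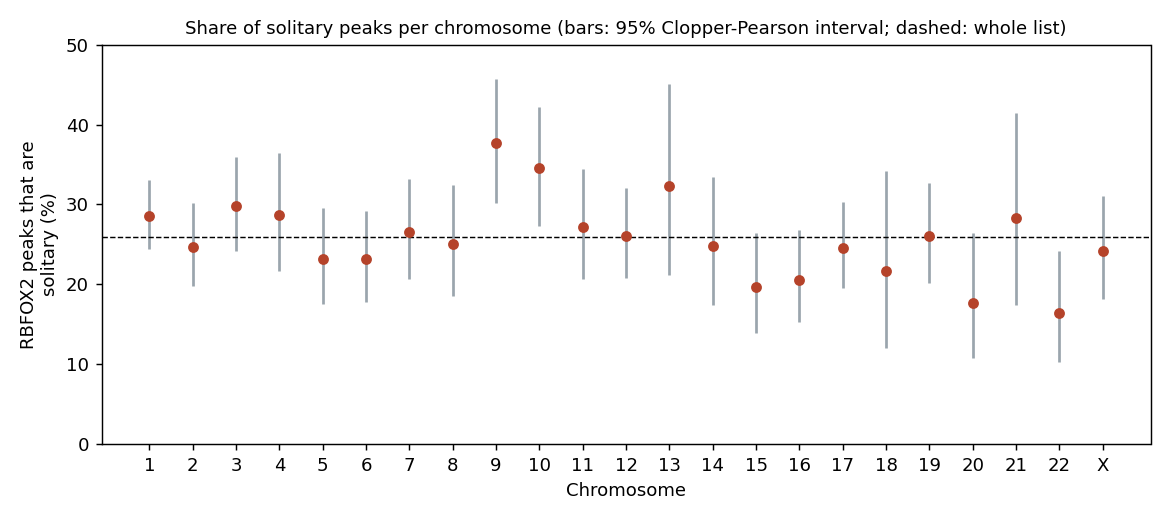
Percentage of the RBFOX2 peaks of each chromosome that were solitary, with 95% Clopper-Pearson intervals as bars and the whole list (25.9%) as a dashed line. Chromosomes 9 (37.7%) and 10 (34.5%) lie above the line with their intervals, and chromosome 22 (16.4%) below it.

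The rule looked at 1 strand only. Few RBFOX2 peaks, solitary or not, had a neighbour on the other strand. Within 1000 bases on the opposite strand, 7 of 1096 (0.64%) had a peak, 4 of TIA1 and 3 of RBFOX2, against 14 of the 3131 other RBFOX2 peaks (0.45%). Nothing is read from the difference. A pair of solitary peaks, both counted among the 7, faced each other on chromosome 1. The minus-strand peak chr1:87379710-87379799 had a log2 fold of 3.09 and a −log10 p of 6.49. The plus-strand peak chr1:87380647-87380731, 847 bases on, had 3.34 and 8.61. The plus-strand solitary peak chr17:42268502-42268651 (log2 fold 4.22) had a minus-strand RBFOX2 peak 613 bases on, chr17:42269265-42269346 (5.37).

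Only 1 solitary peak overlapped a TIA1 peak of the opposite strand. It was chr5:79950655-79950782 (minus), with a log2 fold of 3.45 and a −log10 p of 12.7. The plus-strand TIA1 peak chr5:79950612-79950717 had 3.44 and 13.3. The values of the 2 lists come from separate immunoprecipitations and are given side by side only. The plus-strand peak chr2:198364973-198365077 had a log2 fold of 3.34 and a −log10 p of 4.01. The TIA1 peak 386 bases away on the minus strand had 3.53 and 51.0.

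The same rule with the proteins exchanged gave 1103 solitary TIA1 peaks far from RBFOX2, 34.3% of the 3215 TIA1 peaks. Their median width was 74 bases, against 95 for solitary RBFOX2 peaks. Their median log2 fold was 3.29 and their median −log10 p 5.37, against 3.38 and 4.77. Of them, 59 (5.35%) had a log2 fold of 4 or more, and 2 stood at the −log10 p limit of 400. The yield and depth of each immunoprecipitation are unknown, so these are differences between deposited lists.

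A solitary peak is 1 row of the list, and some isolated sites were written as several rows. With RBFOX2 peaks within 50 bases joined, and TIA1 peaks likewise, the rule kept 1338 of 2749 RBFOX2 sites. Of these, 1096 were single peaks, 176 had 2 peaks and 66 had 3 or more, up to 9. The single peaks were the same 1096 as before. The 242 divided sites had a median width of 158.5 bases. They took the highest value of their peaks, which raises it by construction, and had a median log2 fold of 3.89 and a median −log10 p of 7.50. The minus-strand site chr6:159186821-159187039, for example, joined 5 peaks with a highest log2 fold of 5.19 and a −log10 p of 49.8. The plus-strand site chr5:154194596-154194903 joined 4 peaks with 4.83 and 48.1. Higher in −log10 p but lower in fold was the plus-strand site chr8:37555904-37555965, which joined 4 peaks with 3.32 and 51.1. These sites were chosen after their values were seen. All of them exceed the highest −log10 p of any solitary peak, 34.3.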

How the data were processed

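Per the labels, 8 eCLIP libraries of HEK293T cells (2 clip and 2 input for each of RBFOX2 and TIA1) underlie 2 deposited peak lists. Per the submitters' processing notes, UMI-tools 1.0.0, cutadapt 1.14, STAR 2.4.0i, SAMtools 1.6 and hg19 were used. No source used here names the peak caller. Without a header, units were inferred from the values: the deposited −log10 p-values run from 3.01 to a ceiling of 400, and the deposited log2 folds start at 3.00. Peaks below the lower limits are absent from the lists, and very strong peaks stand at the ceiling of 400.

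Distances are bases between peaks on a strand. Analyses used scipy 1.17.1, pandas 2.3.3, numpy 2.4.6 and matplotlib 3.10.9 in Python 3.11.15. Intervals of shares are 95% Clopper-Pearson, and those of medians are exact binomial intervals from order statistics. The neighbour rule was tested on simulated data. The members and all lists were chosen with earlier results of these data known. Named peaks are the 10 of highest −log10 p, the 10 of highest log2 fold, the 5 widest and the 3 on each side of the distance limit. Others are marked as chosen later or stand for a described group.

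The annotation at hand was for GRCh38. Set against it unconverted, 39.7% of solitary peaks fell in a gene on their strand and 32.9% in one on the opposite strand, so it was not used. Motif, location and gene list results planned for an hg19 reference, and their tests, were not run, and no test was made.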

Additional observations from a re-analysis of the deposited data

How the results depend on the processing

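The number of solitary peaks stayed within 1.5 times of 1096 under 7 of 9 alternatives: 1196, 1036 and 899 at limits of 500, 2000 and 10000 bases, 1338 with peaks within 50 bases joined, 1089 with neighbours on either strand, 1052 without chromosomes M, X and Y, and 1090 without peaks under 20 bases (chosen after seeing the data). Requiring a log2 fold of at least 4 in both lists left 345, of which 138 were solitary before, and a −log10 p of at least 5 left 678, of which 498 were. Fewer peaks entered (815 and 2893 RBFOX2 peaks), which removes members and also neighbours. Steadiness of the number does not extend to the share of rows entering, 1096 of 4227 in the main setting. That share was higher with joined peaks (1338 of 2749 sites) and at a log2 fold of at least 4 (345 of 815). It was lower at a −log10 p of at least 5 (678 of 2893). Joining peaks moved the median log2 fold from 3.38 to 3.46, the median −log10 p from 4.77 to 5.13 and the median width from 95 to 103 bases, since joined sites take the highest value and full span. At 10000 bases the median width was 99 bases; the cause was not tested. All other medians stayed within the intervals of the main ones. No paired analysis was possible because the lists give no value per library, so leaving out a replicate could not be done either. Other windows and motifs were not run for want of hg19. Unknown depth means that isolation may reflect neighbours below the authors' limits, which was not tested.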

Other observations

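Many solitary peaks carried exactly the same −log10 p as another RBFOX2 peak, to every deposited digit. This held for 914 of 1096 solitary peaks (83.4%) and 1888 of the other RBFOX2 peaks below the limit of 400 (60.9%). Within bands of −log10 p the shares were close: 94.8% of solitary and 90.8% of other peaks between 3 and 4, 93.4% and 92.4% between 4 and 5, 79.7% and 76.0% between 5 and 10, and 21 of 84 against 266 of 1118 from 10 to below 400. The value most often repeated among solitary peaks, 3.66, stood at 18 of them, whose log2 folds ran from 3.20 to 4.42 and whose widths were all at least 46 bases. Another, 3.86, stood at 13 with log2 folds from 3.18 to 5.00, among them chr3:178738924-178739068 (minus), rank 4 by fold. One −log10 p therefore occurred with a wide range of folds. The log2 fold itself was repeated less often, at 331 solitary peaks (30.2%) and 449 other peaks (14.3%), and both values together at 45 (4.11%) and 43 (1.37%). These repeats were not split by bands of −log10 p, so nothing is read from the differences.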
